A study of Mus musculus with 4 samples.

Results

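The Bcl2 family of apoptosis regulators was followed here through 10 genes, of 19751 named genes on the array. The effectors were Bax and Bak1, the pro-survival members were Bcl2, Bcl2l1 and Mcl1, and the BH3-only members were Bid, Bad, Bcl2l11, Bbc3 and Pmaip1. The members were found through the RefSeq accession of each array probe. All 10 had at least 1 probe, and together they had 13 of the 39429 gene probes.

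RNA came from C2C12 myoblasts, a mouse satellite cell line of thigh muscle that proliferates as single cells and fuses into myotubes when growth factors are withdrawn. Palmitate, a saturated fatty acid, was given to 4 cultures at 0.1 mmol/l for 48 h, and 4 control cultures received only the ethanol and albumin that carried it, all harvested on day 3 of proliferation. The treatment protocol gives 5% serum for both media, while the label of the control names 10% of a serum written HS. On each of 4 arrays, a palmitate culture labelled with Cy5 was hybridised against a control culture labelled with Cy3, and since the dyes were never exchanged, an effect of palmitate and of the dye cannot be told apart.

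Proteins of the Bcl2 family decide at the mitochondrial outer membrane whether a stressed cell dies. Effectors open pores through which cytochrome c leaves, pro-survival members bind and restrain them, and BH3-only proteins carry stress signals by occupying the pro-survival members or by activating the effectors. In muscle precursor cells the balance bears on how many myoblasts survive to fuse.

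The promoters of both effectors are shown because their transcripts lay on opposite sides of the control. The sequences are the 250 bases before the RefSeq transcription start (build GRCm38.p6), read 5′ to 3′ on the coding strand, and capitals mark motif matches. The Bax promoter lies on the minus strand at chr7:45466899-45467148, and the Bak1 promoter on the minus strand at chr17:27028628-27028877.
Bax: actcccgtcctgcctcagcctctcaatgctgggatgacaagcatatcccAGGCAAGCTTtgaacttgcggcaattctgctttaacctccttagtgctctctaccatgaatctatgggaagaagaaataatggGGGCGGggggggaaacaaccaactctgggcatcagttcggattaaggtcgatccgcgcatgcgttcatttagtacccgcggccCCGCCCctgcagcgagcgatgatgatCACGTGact
Bak1: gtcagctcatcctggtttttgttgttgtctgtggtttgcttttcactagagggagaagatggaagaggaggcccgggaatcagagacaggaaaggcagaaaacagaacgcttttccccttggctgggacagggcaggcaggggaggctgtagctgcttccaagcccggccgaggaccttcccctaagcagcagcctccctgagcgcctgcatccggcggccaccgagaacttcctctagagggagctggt
In the Bax window, the first base of a match to the p53 decamer stood 201 bases before the start. The decamer is only a part of the binding site of p53, a transcription factor of the stress response. GGGCGG, the core of a GC box, stood 118 and 35 bases before the start (the latter on the opposite strand), and CACGTG, an E-box, 9 bases before it. None of these matches overlapped another. The Bak1 window held none of the 6 motifs searched on both strands, which were the GC box core GGGCGG, the box CCAAT, the TATA element TATAAA, the E-box CACGTG, the cAMP response element TGACGTCA and the p53 decamer. Promoters were on hand for 9 of the 10 members (not Pmaip1), as 15 windows. The p53 decamer was in 1 of these 15 windows and in 7.13% of 32851 mouse promoters. CACGTG was in 2 windows (Bax and Bbc3) and in 6.02% of all promoters, while GGGCGG was in 10 windows of 7 members and in 32.7% of all. CCAAT was in 4 windows against 33.8% of all, and TATAAA (12.4% of all) and TGACGTCA (1.55%) were in none. The 10 windows with GGGCGG held 54 to 81.6% G and C, against a median of 52.4% over all promoters, and 2 of the Bbc3 windows overlap. The part of base composition in the counts was not tested. A match describes the letters of the window and does not show that a factor binds there.

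Before the members are described, the arrays need a word. Replicate 1 stood apart: over all tested probes its log2 ratios correlated at -0.0751 (Pearson, across probes of 1 array) with the mean of the other arrays, and those of replicates 2, 3 and 4 at 0.646 to 0.817, so means of the members and of the named genes are given with and without it. Between 57.6 and 70.7% of gene spots were well above background in a channel. All 6 myoblast markers and 4 of 5 markers of myotubes were above background on every array in both channels. Of the markers of other cells, those of adipocytes (Adipoq, Plin1) were above background on no array, as were Cdh5 of endothelium and Epcam of epithelium. Of 3 markers of blood cells, Csf1r was above it on all arrays, Adgre1 on 4 control and 3 palmitate spots and Ptprc on 2 and 3. Pecam1 of endothelium was above it on all and Cdh1 of epithelium on 1 palmitate spot. The part of these markers in the results was not tested. In RNA of a whole culture, fewer cells of a type and less RNA per cell cannot be told apart.

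No member passed the test over all probes (limma, mean log2 ratio of palmitate over control, Benjamini-Hochberg adjusted p under 0.05), and neither did any of 24169 tested probes, a background of 0%. At an unadjusted p under 0.05, 5 of 10 members were counted by their brightest probe, against 21.9% of all tested probes. Bax and Bad were the 2 on the lower side, against 11.1% of probes, and Bak1, Bcl2l1 and Bid the 3 on the higher side, against 10.8%. The same sign on 4 of 4 arrays was found for Bax, Bad, Bak1 and Bcl2l1, against 30.3% of probes. No member reached a fold of 1.6 with an unadjusted p under 0.05, and few probes did (531 of 24169), so this says little about the family. Across the 10 members the median log2 ratio was 0.047, and that of all tested probes was 0.0087. Without replicate 1, 4 members passed the adjusted p, Bax and Bad lower and Bcl2l1 and Bid higher, against 18.0% of probes. Replicate 1 was singled out by these same ratios, so calls without it, here and below, are no independent support. Leaving out any other single replicate let no tested probe pass. The direction of each member is therefore given below as values.

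**Figure D1:**
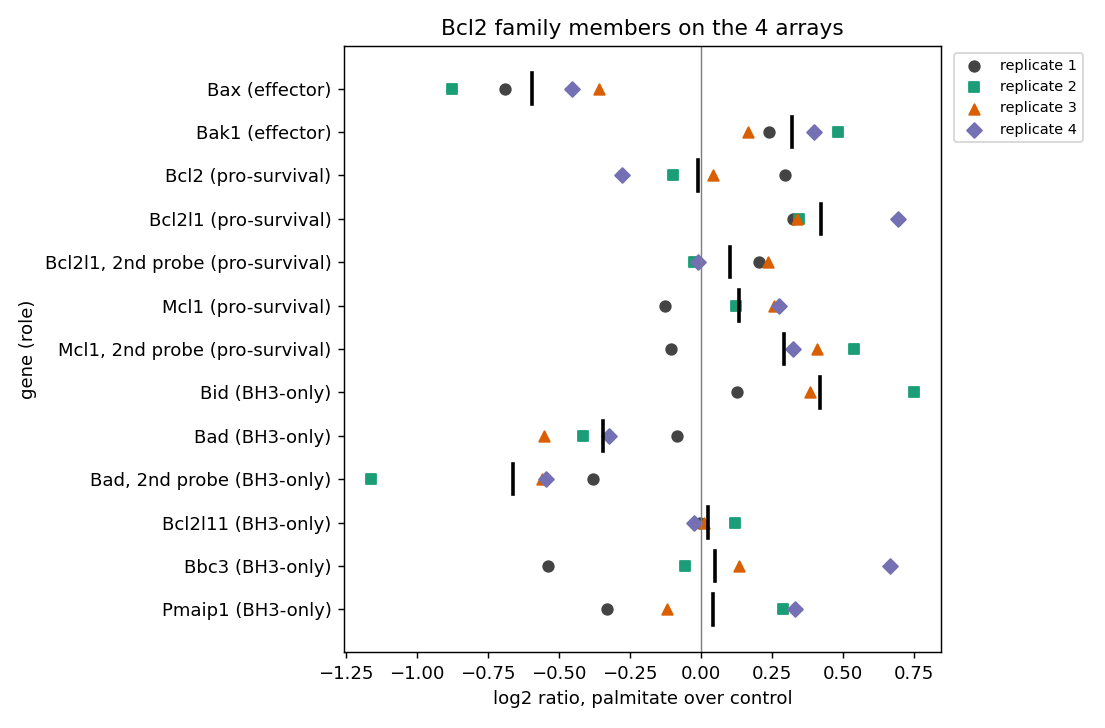
The x axis gives the log2 ratio, palmitate over control, for each probe of the 10 members (y axis, with its role). Points are the 4 arrays and the black bar is their mean. After loess normalization all points of Bax and Bad lie below 0, and those of Bak1, of the brightest Bcl2l1 probe and of Bid above it. The means of Bax and Bad turn positive with no dye normalization, that of the brightest Bad probe also with median centring (0.0057). The arrays of Bbc3 spread from -0.54 to 0.66.

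Bax and Bak1, the effectors, lay on opposite sides of the control, except with no dye normalization, where Bax was also above it in absolute terms but below the median of all probes. Bax, which waits mostly in the cytosol and moves to mitochondria upon activation, had log2 signals of 13.89, 14.07, 13.98 and 13.95 in control replicates 1 to 4, and of 13.20, 13.20, 13.62 and 13.50 in the palmitate cultures. Every palmitate culture was below every control, and the step was deepest on replicate 2. The log2 ratios were -0.69, -0.87, -0.36 and -0.45, with a mean of -0.59 ± 0.23 (SD, n = 4 arrays), a level 1.51-fold lower. This probe was at percentile 2.4 of all tested probes. The 95% interval ran from -0.85 to -0.33, and the limma adjusted p was 0.118. Without replicate 1 the mean was -0.56 and the limma adjusted p 0.024, while without replicate 2, 3 or 4 no tested probe passed.

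Bak1, which sits in the mitochondrial outer membrane already in healthy cells, had control log2 signals of 14.08, 14.00, 14.01 and 14.03 and palmitate signals of 14.32, 14.48, 14.18 and 14.43. Again the groups did not overlap, this time with palmitate above. The log2 ratios were 0.24, 0.48, 0.17 and 0.40, with a mean of 0.32 ± 0.14 (SD, n = 4), 1.25-fold higher. Its 95% interval ran from 0.11 to 0.53 (limma adjusted p = 0.134). Without replicate 1 the mean was 0.35 (limma adjusted p = 0.053). Control signals of Bak1 spread by an SD of 0.036 and those of Bax by 0.076, both below their SD after palmitate (0.14 and 0.21). This was not particular to the effectors. The SD was larger after palmitate for every other member but Bid (0.20 in control and 0.11 after palmitate). Outside the family it was also larger for some genes, such as Casp8 (0.107 and 0.480), and not for others, such as Htra2 (0.110 and 0.107). The share of all tested probes with a larger SD after palmitate was not counted, so this is not shown to be a trait of the family. Dye and treatment cannot be told apart in this spread either.

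The difference of the effectors' log2 ratios, Bax minus Bak1, was -0.93, -1.36, -0.53 and -0.85 on the 4 arrays, with a mean of -0.92 ± 0.34 (SD, n = 4), and -0.91 without replicate 1. Taken as a mean of both genes, the effectors were at -0.14 ± 0.091 (SD, n = 4) and at -0.11 without replicate 1, so their mean hides the opposite signs. Levels of different probes are not compared here, since signal depends on the probe.

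Among the pro-survival members, the values of Bcl2l1 stood above the control and those of Bcl2 on both sides of it. Bcl2l1 encodes Bcl-xL, which holds Bax and Bak1 in check. Its brightest probe had control log2 signals of 13.67, 13.71, 13.88 and 13.94 and palmitate signals of 13.99, 14.05, 14.21 and 14.63, so the groups did not overlap. The log2 ratios were 0.32, 0.34 and 0.34 on replicates 1 to 3 and 0.69 on replicate 4, with a mean of 0.42 ± 0.18 (SD, n = 4), 1.34-fold higher and at percentile 95.2 of tested probes. The 95% interval ran from 0.19 to 0.65, and the limma adjusted p was 0.120. Without replicate 1 the mean was 0.46 (limma adjusted p = 0.030). Another probe of Bcl2l1 was dim, with raw control signals of 80 to 97.5 against 8049 to 12292 for the brightest probe. It gave 0.20, -0.026, 0.24 and -0.010, a mean of 0.10 ± 0.14 (SD, n = 4) with a limma adjusted p of 0.523, and 0.067 without replicate 1.

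Mcl1 encodes a short-lived protein that must be made continuously to keep restraining Bak1. Its brightest probe gave log2 ratios of -0.12, 0.12, 0.26 and 0.28, with a mean of 0.13 ± 0.18 (SD, n = 4) and an interval of -0.10 to 0.37 (limma adjusted p = 0.452). Without replicate 1 this mean was 0.22 (limma adjusted p = 0.135). A dimmer probe gave -0.11, 0.54, 0.41 and 0.32, with a mean of 0.29 ± 0.28 (limma adjusted p = 0.228), and 0.42 without replicate 1 (limma adjusted p = 0.024). Both probes of Mcl1 were below 0 on replicate 1 and above 0 on the other 3 arrays.

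For Bcl2, the founder of the family, the single probe is assigned to the RefSeq transcript NM_177410. The log2 ratios were 0.29, -0.097, 0.043 and -0.28, with a mean of -0.0095 ± 0.24 (SD, n = 4) and a 95% interval of -0.28 to 0.26 (limma adjusted p = 0.967), and the mean was -0.11 without replicate 1. Control signals lay between 9.93 and 10.20 and palmitate signals between 9.65 and 10.49, so the palmitate cultures enclosed the controls. The difference Bax minus Bcl2, a quantity often read as a balance of death and survival signals, was -0.98, -0.78, -0.40 and -0.17, with a mean of -0.58 ± 0.36 (SD, n = 4), or -0.45 without replicate 1. Bax minus Bcl2l1 was -1.01, -1.22, -0.70 and -1.15, with a mean of -1.02 ± 0.23 (SD, n = 4), and both differences were below 0 on all 4 arrays.

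Bid and Bad, the BH3-only members with an unadjusted p under 0.05, had opposite signs, except with median centring and no dye normalization, where Bad was not below 0. Bid is cut by Casp8 after death receptor signalling, and its fragment activates Bax and Bak1. Its spot on replicate 4 was marked as an outlier by the scanner software and left out, so its values rest on 3 arrays. Control log2 signals were 10.92, 10.53 and 10.80 and palmitate signals 11.05, 11.27 and 11.18, which did not overlap. The ratios were 0.13, 0.75 and 0.38, with a mean of 0.42 ± 0.31 (SD, n = 3), 1.34-fold higher (95% interval 0.058 to 0.78, limma adjusted p = 0.188). Without replicate 1 the mean of the remaining 2 arrays was 0.57 (limma adjusted p = 0.040). With Bid, the levels of 4 members by their brightest probes did not overlap between the groups, against 12.3% of tested probes.

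Bad binds Bcl-xL and Bcl2 unless it is phosphorylated and kept in the cytosol by adaptor proteins of the Ywha family. Its brightest probe had control log2 signals of 14.08, 14.25, 14.11 and 13.82 and palmitate signals of 13.99, 13.83, 13.56 and 13.50. The groups overlapped, although palmitate was lower on each array. The log2 ratios were -0.084, -0.41, -0.55 and -0.32, with a mean of -0.34 ± 0.20 (SD, n = 4), 1.27-fold lower (95% interval -0.58 to -0.10, limma adjusted p = 0.141). A dimmer probe of Bad gave -0.38, -1.16, -0.56 and -0.54, with a mean of -0.66 ± 0.34 (SD, n = 4), 1.58-fold lower, and its groups did not overlap (limma adjusted p = 0.118). Both probes passed without replicate 1, with means of -0.43 and -0.75 and limma adjusted p of 0.024 and 0.015.

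The other BH3-only members had intervals that held 0. Bcl2l11 encodes Bim, a BH3-only protein that binds every pro-survival member, and its probe was near background, with raw control signals of 82 to 103. It was well above background on 3 control and 4 palmitate spots, and its log2 ratios stayed between -0.024 and 0.12 (mean 0.026 ± 0.064, SD, n = 4, and 0.035 without replicate 1). Bbc3 (Puma) and Pmaip1 (Noxa) are classical p53 targets, and Noxa binds Mcl1. Bbc3 gave -0.54, -0.057, 0.13 and 0.66, with a mean of 0.051 ± 0.50 (SD, n = 4), a 95% interval of -0.40 to 0.50 and a limma adjusted p of 0.895. Of all members it spread most between arrays, and its mean was 0.25 without replicate 1. Pmaip1 gave -0.33, 0.29, -0.12 and 0.33, with a mean of 0.043 ± 0.32 (SD, n = 4, interval -0.28 to 0.36, limma adjusted p = 0.873), and 0.17 without replicate 1. Each of these intervals leaves room for a difference in either direction, so these members are not shown to be unaltered. Trp53 itself, chosen here for its role after its values were seen, gave -0.50, -0.61, 0.33 and -0.015 (mean -0.20 ± 0.44, limma adjusted p = 0.517, and a mean of -0.098 without replicate 1).

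Pro-death and pro-survival members were then set against each other, as the mean log2 ratio over the brightest probes of each role on each array. On replicate 4, where the spot of Bid was left out, the BH3-only and pro-death means rest on the remaining genes. Pro-survival members averaged 0.16, 0.12, 0.21 and 0.23, with a mean of 0.18 ± 0.048 (SD, n = 4) and of 0.19 without replicate 1, and were above 0 on all arrays. BH3-only members averaged -0.17, 0.14, -0.030 and 0.16, with a mean of 0.026 ± 0.15, which became 0.090 without replicate 1. All pro-death members together, effectors and BH3-only, were at -0.023 ± 0.12, and their mean turned positive, to 0.031, without replicate 1. Pro-death minus pro-survival was -0.35, -0.082, -0.26 and -0.13, with a mean of -0.21 ± 0.12 (SD, n = 4), below 0 on all 4 arrays and -0.16 without replicate 1. No p is given for these means, because the members were chosen with results of these data known and 1 gene weighs heavily in groups of 2 to 7. Within the pro-survival mean, Bcl2l1 stood at 0.42 and Bcl2 at -0.0095, and within the pro-death mean, Bax stood at -0.59 and Bid at 0.42.

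**Figure D2:**
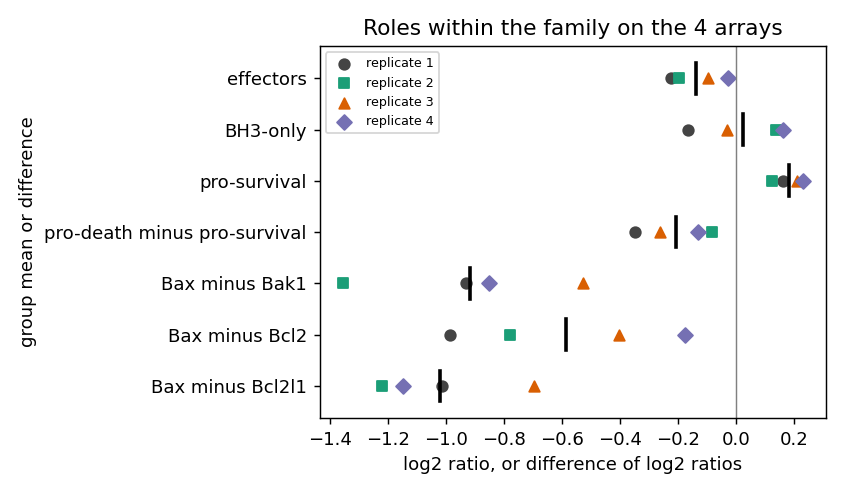
Mean log2 ratio (palmitate over control) for each role, and differences of log2 ratios between roles or genes (x axis), on the 4 arrays (points) with their mean (black bar). The pro-survival points lie between 0.12 and 0.23, and every point of pro-death minus pro-survival and of Bax minus Bak1, Bcl2 or Bcl2l1 lies below 0. Bid has no value on replicate 4.

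How far these values hold under other treatments of the same spots was examined relative to the median of the tested probes, since the median itself moved from 0.0087 to 0.19 with median centring and to 0.99 with no dye normalization. Several alternatives change only the test or which probes are tested, and so leave the ratio of a member as it is, and the 3 other treatments of the dyes gave Bax the same relative value (-0.45). Among the alternatives that change the ratios, Bax relative to the median was at -0.61 with no background correction or the processed signals, at -0.53 with array weights, and between -0.68 and -0.51 when leaving out each replicate in turn. Relative to the median, Bad also stayed below and Bak1, Bcl2l1, Mcl1 and Bid above, while Bcl2 lay on both sides. The absolute ratio of Bax became 0.54 and that of Bad 0.80 with no dye normalization, and Bad was at 0.0057 with median centring. Calls came in 3 alternatives: without replicate 1 as given above, with array weights and with no dye normalization. With no dye normalization, 9 members and 20348 probes passed. With array weights, Bax, Bad, Bak1 and Bcl2l1 passed, and the count over all probes is given further below. These weights were estimated from the same ratios, at 0.416 for replicate 1 and 0.851, 1.15 and 2.46 for replicates 2 to 4. Calls with them are therefore no independent support either.

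**Figure D3:**
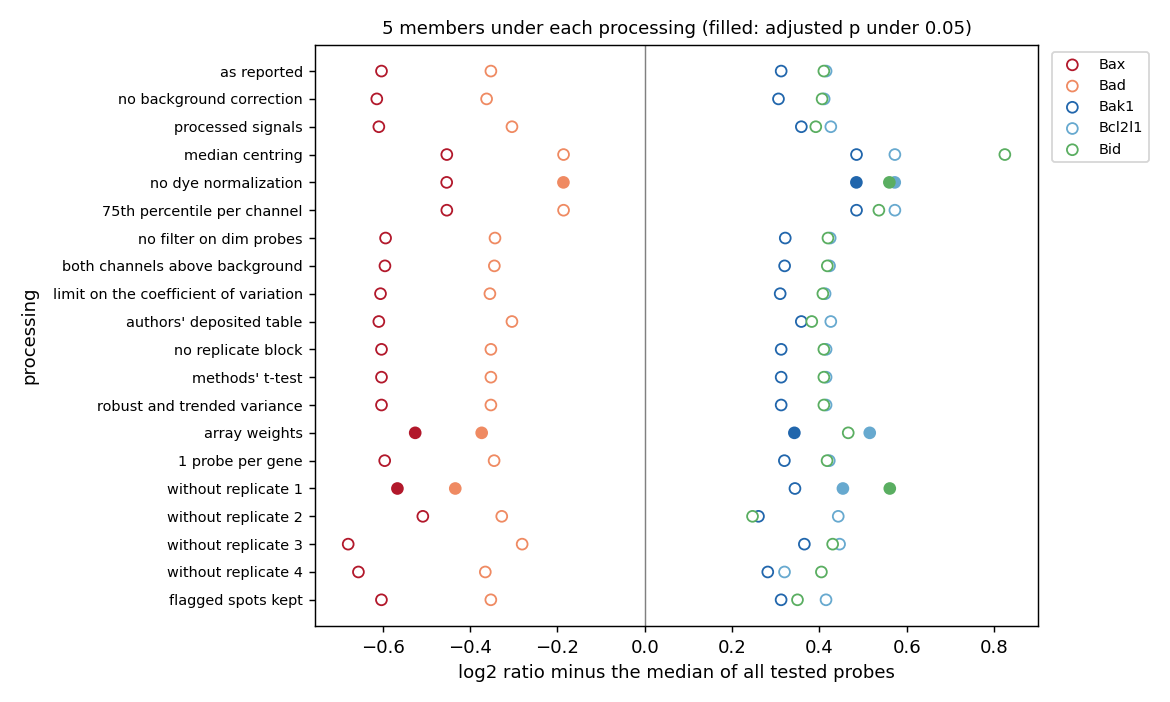
Log2 ratio of 5 members minus the median of all tested probes (x axis) under each processing (y axis), where open circles did not and filled circles did have a limma adjusted p under 0.05. Bax and Bad lie left of 0 and Bak1, Bcl2l1 and Bid right of 0 in every line, although lines that change only the test or the probes tested keep the ratios of the first line.

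Other genes of the pathway were taken from lists of relatives, partners and regulators. For the genes of these lists named by rule (brightest probe), each mean below 0 after loess turned positive with no dye normalization, which moved the median of all tested probes to 0.99. Of 15 relatives, 13 were on the array and 9 were tested, and none passed the limma adjusted p, with 2 lower and 1 higher at an unadjusted p under 0.05 (33.3%, against 21.9% of all tested probes) and a median of -0.060. Bcl2l2 (Bcl-w), a pro-survival protein, gave -0.27 on replicate 1 and 0.62, 0.53 and 0.82 on the others, with a mean of 0.43 ± 0.48 (SD, n = 4, limma adjusted p = 0.234), and 0.66 without replicate 1 (limma adjusted p = 0.0084). A dimmer probe of Bcl2l2 averaged 0.17 ± 0.40, and 0.36 without replicate 1 (limma adjusted p = 0.057), and did not pass. Bcl2l12 had the same shape, -0.36 on replicate 1 and 0.91, 0.40 and 0.84 on the others, with a mean of 0.45 ± 0.58 (limma adjusted p = 0.280), and 0.71 without replicate 1 (limma adjusted p = 0.012). Bmf, a BH3-only protein tied to the cytoskeleton, was higher on all 4 arrays at 0.38 ± 0.33, and at 0.44 without replicate 1. On the lower side was Bcl2l13, a mitophagy receptor, at -0.30 ± 0.23, and at -0.26 without replicate 1. Bcl2l15 gave -0.87, -0.69, -0.11 and -0.019, with a mean of -0.42 ± 0.42, and -0.27 without replicate 1. Bik, a BH3-only protein of the endoplasmic reticulum, was at -0.060 ± 0.080, and at -0.043 without replicate 1. Bok, a relative of the effectors, was measured on replicates 3 and 4 alone and stood at -0.18. Of the mitophagy receptors Bnip3 and Bnip3l, Bnip3 was at 0.18 ± 0.11 (0.17 without replicate 1). The probes of Bnip3l disagreed, with the brightest at -0.16 ± 0.15 (-0.088 without replicate 1) and the other 3 at 0.31 to 0.37 (0.33 to 0.40 without it).

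Partners act with the family at the mitochondrion or downstream of it. All 22 were tested, and 2 were lower and 2 higher at an unadjusted p under 0.05, a share of 18.2% that lies below the 21.9% of all tested probes. The median was 0.021. Xiap, which blocks executioner caspases, gave -0.19, -0.77, -0.75 and -0.62, with a mean of -0.58 ± 0.27 (SD, n = 4, limma adjusted p = 0.118), and -0.71 without replicate 1 (limma adjusted p = 0.0057). Htra2, a mitochondrial protease that relieves this block once released, was also lower on all arrays at -0.45 ± 0.20 (-0.43 without replicate 1). Bcap31, a membrane protein of the endoplasmic reticulum that Casp8 cleaves, was at 0.34 ± 0.13 (0.39 without replicate 1), and Mff, which recruits the fission machinery to mitochondria, at 0.42 ± 0.28 (0.51 without it). Each of these 4 passed without replicate 1.

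Regulators set the activity or amount of the members. All 28 were tested, with 5 lower and 5 higher at an unadjusted p under 0.05 (35.7%, against 21.9% of all tested probes) and a median of -0.056. Without replicate 1, 3 lower and 5 higher passed the limma adjusted p (28.6%, against 18.0% of all tested probes). Siva1, a pro-death protein that binds Bcl-xL, gave -0.14, -1.01, -0.71 and -1.04, with a mean of -0.73 ± 0.42 (SD, n = 4, limma adjusted p = 0.119), and -0.92 without replicate 1. Another probe of Siva1 was at 0.065 on replicate 1 and averaged -0.41 ± 0.35 (limma adjusted p = 0.180), and -0.57 without replicate 1. The probes of Gsk3b, a kinase that marks Mcl1 for destruction, disagreed: the brightest averaged -0.92 ± 0.82 and the others -0.088 and 0.17, while without replicate 1 these means were -1.31, -0.085 and 0.20. Foxo1, a transcription factor, was at -0.44 ± 0.38 (-0.63 without replicate 1), and Dynll2, the dynein light chain that tethers Bmf, at -0.23 ± 0.085 (-0.26 without it). Another probe of Foxo1 averaged -0.29 ± 0.43, and -0.46 without replicate 1, where it did not pass (limma adjusted p = 0.055). The other probe of Dynll2 averaged -0.41 ± 0.10, and -0.43 without replicate 1. On the higher side, Usp9x, which removes ubiquitin from Mcl1, gave 0.36, 0.80, 0.60 and 0.29, with a mean of 0.51 ± 0.23 (SD, n = 4, limma adjusted p = 0.118), and 0.56 without replicate 1. Casp8, the protease that cuts Bid, was at 0.55 ± 0.41, with 0.00023 on replicate 1 and 0.50 to 0.89 on the others, whose mean was 0.74.

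Ywhag and Ywhab, adaptors of the kind that hold phosphorylated Bad, were at 0.62 ± 0.52 and 0.44 ± 0.37, both below 0 on replicate 1 and above 0 on the other arrays, where their means were 0.87 and 0.62. Their relative Ywhae, named after its values were seen, was lower on all 4 arrays at -0.26 ± 0.15 (limma adjusted p = 0.183), and at -0.22 without replicate 1, so adaptors of this family did not share a sign after loess.

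**Figure D4:**
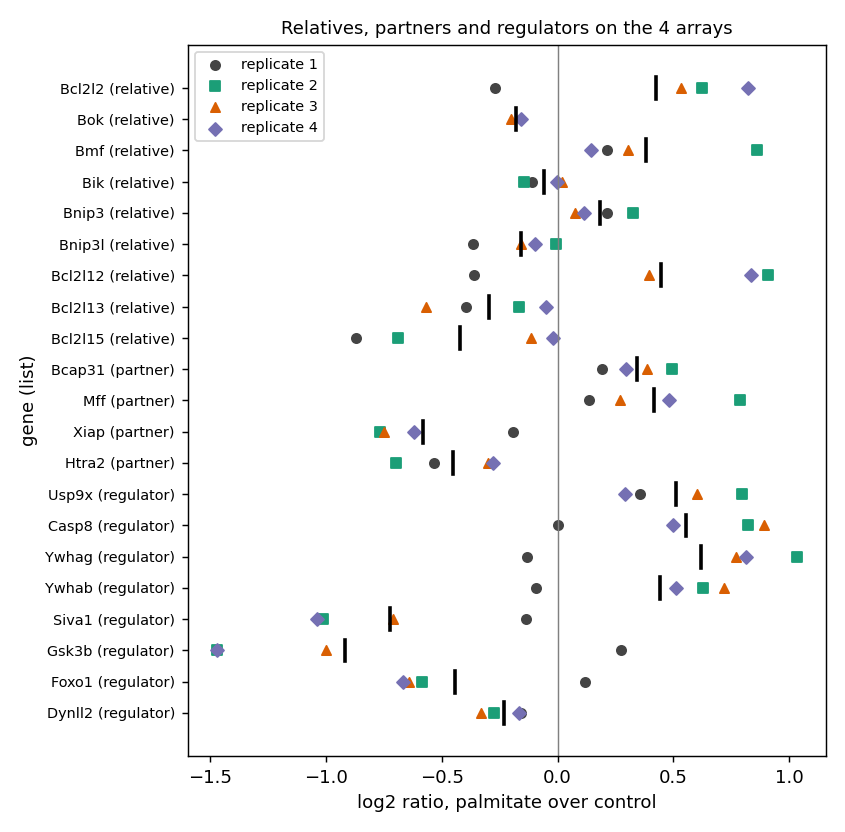
The x axis gives the log2 ratio, palmitate over control, for the named relatives, partners and regulators (y axis, brightest probe) on the 4 arrays (points) with their mean (black bar). Xiap, Htra2, Siva1 and Dynll2 lie below 0 (their means turn positive with no dye normalization, that of Dynll2 also with median centring) and Bcap31, Mff, Usp9x and Bmf above it on all arrays, while Bcl2l2, Bcl2l12, Ywhag, Ywhab, Foxo1 and Gsk3b have replicate 1 on the other side of 0.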

How the data were processed

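RNA of 4 palmitate cultures (Cy5) and 4 control cultures (Cy3) was hybridised to 4 Agilent arrays on 1 slide, read in 1 scan. The labels call the arrays biological replicates, and p-values measure the spread between them. The authors extracted the spots with Agilent Feature Extraction 10.7.3.1 (per the methods and the submitters' processing notes) and deposited median spot and background signals as intensity values without correction, processed signals as intensity values, with background subtracted and dyes normalized, as well as a table of log2 ratios of palmitate over control. The deposited log2 ratios equalled those of the processed signals to within 3e-06.

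Of 44397 spots per array, 43020 were for genes, and 26055 of 39429 probes were named by RefSeq accession. The median signals were corrected by normexp (offset 50) and loess within arrays (limma 3.58.1, R 4.3.3, statmod 1.5.0), control spots having weight 0. Spots flagged as outliers were left out (0.563 to 0.842% per array), and replicate spots were averaged per probe. Tests covered the 24169 probes (61.3%) for which 1 or both channels were well above background on each of the 4 arrays. Precision is limited by their number. Means of the log2 ratios were compared with 0 by limma, and p-values were adjusted over all tested probes (Benjamini-Hochberg, 0.05). An exact sign-flip test over 4 arrays cannot go below a two-sided p of 0.125. A gene is represented by its brightest tested probe.

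Since each array holds both cultures, the array is the pair. The deviations of its channels from their group means correlated at 0.182, 0.071, 0.184 and 0.477 on replicates 1 to 4.

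The members and lists were chosen with earlier results of these data known. Named are all members with every probe, all tested relatives, and per direction up to 4 partners and 4 regulators with the lowest unadjusted p under 0.05. Genes named beyond this rule are said to be chosen after their values were seen. The result of 1 gene is not reported here. The alternatives changed the background correction, source of values, dye normalization, filters (among them the coefficient of variation, at most 50% in the methods), pairing, test, variance model, array weights, probe choice and replicates. Keeping the flagged spots was added after the data were seen. The pipeline was tested on simulated data. Promoter sequences are those of RefSeq on GRCm38.p6.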

Additional observations from a re-analysis of the deposited data

Results flagged for a closer look

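In 2 results, 1 array lay far from the other 3, judged by its gap to the nearest array as a share of the whole range, a criterion that chance meets in about 1 of 20 groups. The log2 ratio of Bcl2l1 on replicate 4 was 0.69, with the other arrays between 0.32 and 0.34. The log2 ratio of Foxo1 on replicate 1 was 0.12, with the other arrays between -0.67 and -0.59.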

How the results depend on the processing

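The number of members past the limma adjusted p was 0 and became 9 with no dye normalization and 4 with array weights, and ranged from 0 to 4 when leaving out each replicate in turn. For all probes it was 0 and became 13 with the processed signals or the deposited table and 20348 with no dye normalization. It became 2 with limited coefficients of variation, 10 with the methods' t-test and 3333 with array weights. That t-test, unpaired, was run on signals normalized and filtered as here, not as in the study. With 1 probe per gene the number was 2, and it ranged from 0 to 4352 when leaving out each replicate in turn. For the other pathway genes, 0 became 52 with no dye normalization, 14 with array weights and 0 to 15 when leaving out replicates. Without the pairing (no replicate block), 0 members and 70 probes passed. Pro-death minus pro-survival stayed between -0.25 and -0.14.

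With no dye normalization, which moved the median of all probes to 0.99, the sign of the log2 ratio reversed for Bax (0.54), Bcl2 (1.10), Bad (0.80), Bok (1.29), Bik (0.65), Bnip3l (0.98), Bcl2l13 (0.81), Bcl2l15 (0.57), Xiap (0.52), Htra2 (0.71), Siva1 (0.44), Gsk3b (0.20), Foxo1 (0.67) and Dynll2 (0.88). With median centring it reversed for Bcl2 (0.30), Bad (0.0057), Bcl2l11 (-0.0080), Bnip3l (0.18), Bcl2l13 (0.0097) and Dynll2 (0.083), and with scaling to the 75th percentile for Bcl2 (0.0072) and Bcl2l11 (-0.30). Bcl2l11 was at -0.015 with no background correction. When leaving out each replicate in turn, Bcl2 ranged from -0.11 to 0.080 (0.020 without replicate 2), Bcl2l11 from -0.0057 to 0.042, Bbc3 from -0.15 to 0.25 and Pmaip1 from -0.054 to 0.17 (-0.040 without replicate 2). Beyond the shift of the median, the cause was not tested. Every other gene named by the rule kept its sign under each alternative run.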
